A study of Mus musculus with 9 samples.

Results

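The genes described here are Phgdh, Psat1, Psph, Shmt1, Shmt2, Mthfd1, Mthfd2, Mthfd1l, Aldh1l2 and Asns, which encode enzymes of serine synthesis, of the folate-bound one-carbon pathway and of asparagine synthesis. They were taken by symbol, from a list drawn up with earlier results of these data known, and are 10 of the 36410 rows of the deposited count table. All 10 passed the filter on low counts, as did 12678 rows in all.

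Cells make serine from a glycolytic intermediate in consecutive steps: Phgdh oxidizes 3-phosphoglycerate, Psat1 transfers an amino group to the product, and Psph removes the phosphate. Serine hydroxymethyltransferases, Shmt1 in the cytosol and Shmt2 in mitochondria, then pass a carbon from serine to tetrahydrofolate and leave glycine. The carbon unit is carried through the folate forms by Mthfd1 in the cytosol and by Mthfd2 and Mthfd1l in mitochondria, and is spent on purines, thymidylate and methionine, while mitochondrial Aldh1l2 oxidizes it to CO2. Asns makes asparagine from aspartate and glutamine. Many of these genes, Asns, Psat1, Phgdh, Shmt2, Mthfd2 and Aldh1l2 among them, are known targets of ATF4, the transcription factor that cells translate when amino acids are short or proteins misfold.

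Ribosome-protected fragments were sequenced from immortalized mouse striatal cells, which derive from the brain region most affected in Huntington disease (HD) and which the labels give as C57/BL6 in strain. The control line (STHdhQ7/Q7) carries knock-in huntingtin exon 1 with 7 glutamines on both alleles, HD-het (STHdhQ7/Q111) has 7 on 1 allele and 111 on the other, and HD-homo (STHdhQ111/Q111) has 111 on both. All cells were growing in culture and all received cycloheximide, which holds ribosomes on the mRNA, for 10 min before lysis, and fragments of 26 to 32 nt from the 80S monosome fraction were made into libraries. There were 3 libraries for each line, from independent rounds of culture, 9 in all. Each genotype is represented by 1 cell line, so that effects of genotype and of line cannot be told apart, and the p-values below measure the spread between cultures of these lines. Every value is a footprint abundance, in which the amount of mRNA and the ribosomes on each mRNA cannot be told apart.

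Library totals ranged from 22504543 to 41888701 counts, and a member gene held between 274 and 25408 counts in a library. Footprints on Htt itself averaged 28.7 CPM (counts scaled to a common library size, per 1e6) in the control line, 20.3 in the HD-het line and 6.62 in the HD-homo line. Of 11 markers of striatal projection neurons and striatal progenitors, Drd1, Drd2, Bcl11b, Isl1, Gad1 and Gsx2 had at most 3 counts in any library and Gad2 at most 7, whereas line means were 33.5 to 56.9 CPM for Foxp1, 10.6 to 38.1 for Meis2, 2.11 to 19.9 for Dlx2 and 5.18 to 12.04 for Ppp1r1b. Of 5 general neuronal markers, Tubb3 averaged 84.1 to 101.8 CPM and Map2 44.3 to 55.3 CPM by line, and Snap25, Syt1 and Rbfox3 had at most 6 counts in any library. All 7 fibroblast and mesenchyme markers together summed to 6408 to 9169 CPM across control libraries, to 25464 to 27755 CPM across HD-het libraries and to 5604 to 7116 CPM across HD-homo libraries, with Lum at or under 3 counts in control and HD-het. Most of these sums was Col1a1 and Acta2, and single markers differed in direction: against control, HD-homo was higher in mean Col1a2 (1027 against 24.0 CPM) and Dcn (40.6 against 7.30 CPM) and lower in mean Acta2 (267 against 4099 CPM). The 5 neural precursor markers summed to 9585 to 9855, 8990 to 9821 and 5989 to 6522 CPM in the same order, most of it Vim, which mesenchymal cells also express. The more specific Nes averaged 400 CPM for control, 1086 for HD-het and 7.01 for HD-homo, Sox2 averaged 51.1, 33.9 and 2.26, and Pax6 averaged 17.3, 24.8 and 0.0759, each lowest in HD-homo. The part of these line differences in the values below was not tested.

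In the RefSeq annotation of GRCm38.p6, Phgdh lies on chromosome 3 from 98313171 to 98339969, Psat1 on chromosome 19 from 15905123 to 15925059, and Psph on chromosome 5 from 129765558 to 129787443. Shmt1 lies on chromosome 11 from 60788897 to 60811265, and Shmt2 on chromosome 10 from 127517123 to 127522444. Mthfd1 lies on chromosome 12 from 76254406 to 76319820, Mthfd2 on chromosome 6 from 83305704 to 83326011, Mthfd1l on chromosome 10 from 3972892 to 4167081, and Aldh1l2 on chromosome 10 from 83487447 to 83534146. Asns lies on chromosome 6 from 7675165 to 7693209. Shmt2, Mthfd1l and Aldh1l2 thus share chromosome 10, and Mthfd2 and Asns share chromosome 6. At their ends Psph overlaps Cct6a by 88 bases and Shmt2 overlaps Ndufa4l2 by 32 bases, both on the opposite strand, and whether counting used strand is not given in the sources used here.

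The stretch of the Asns promoter shown next carries a C/EBP-ATF response element, the kind of site that ATF4 dimers bind, written in capitals. It is from RefSeq on GRCm38.p6, chr6:7693215-7693242, minus strand, and the first capital lies 23 bases upstream of the annotated start.
Asns: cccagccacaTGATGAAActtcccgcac
The motif TGATGNAA was searched on both strands of windows from 250 bases before to 50 bases after each RefSeq start. Asns was the only 1 of the 9 genes with a window to hold it (10 windows, Psat1 having several starts), against 3.97% of all 32851 windows. The E-box CACGTG, a palindrome, was in none of the 10 windows and in 7.15% of all windows. These matches describe letters in a window and not binding. Aldh1l2 had no window.

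Together the 10 genes held 0.214% ± 0.00425 of all counts of the control line, 0.163% ± 0.00485 of those of HD-het and 0.211% ± 0.00775 of those of HD-homo (each mean ± SD, n = 3 libraries). The HD-het libraries, at 0.157% to 0.167%, all lay below those of the other lines. Divided by coding length, levels spanned a wide range, and Psat1 had the densest footprints in every line. In control cells the order was Psat1 at 519 CPM per kb of coding sequence, Phgdh at 296, Shmt2 at 190, Mthfd2 at 109, Mthfd1 at 107, Psph at 94.2, Asns at 73.0, Shmt1 at 42.9, Mthfd1l at 39.4 and Aldh1l2 at 4.17. The library ranges of Mthfd2 and Mthfd1 overlapped, as did those of Shmt1 and Mthfd1l, and all other neighbours in the control order were apart.

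In HD-het cells Psat1 and Phgdh still led at 390 and 231 CPM per kb, and Psph was next at 144. Asns at 122, Mthfd2 at 116 and Shmt2 at 112 followed with ranges that overlapped. Mthfd1 stood at 44.7, ahead of Mthfd1l at 30.5 and Shmt1 at 25.9, whose ranges overlapped, and Aldh1l2 was lowest at 9.64. In HD-homo cells Psat1 at 539, Phgdh at 283 and Shmt2 at 176 CPM per kb led as in control cells. Psph at 110, Asns at 109.8 and Mthfd2 at 105 overlapped each other, as did Shmt1 at 66.6 and Mthfd1 at 64.1, followed by Mthfd1l at 26.3 and Aldh1l2 at 6.23.

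**Figure D1:**
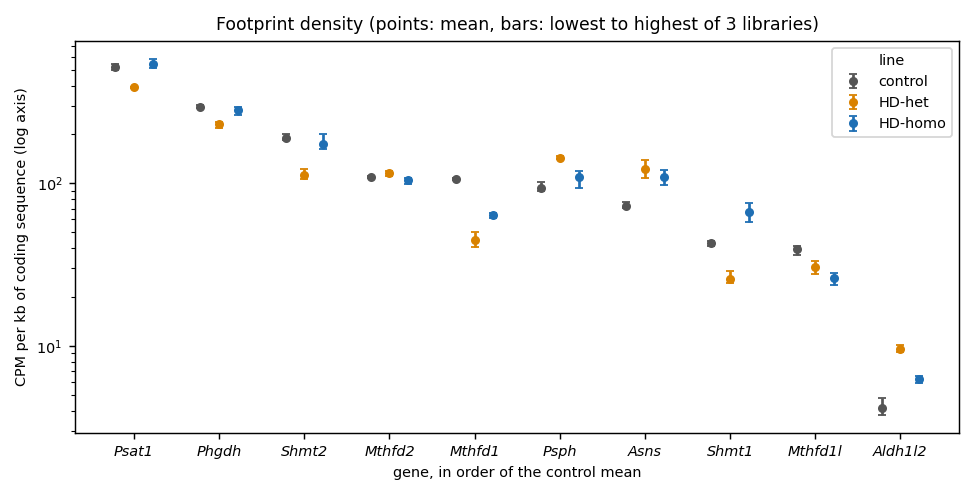
Footprint density of the 10 genes (CPM per kb of coding sequence, log axis), in the order of the control means, with 1 colour per line. Points are means of 3 libraries and bars run from the lowest to the highest library. Psat1 is highest in every line (519, 390 and 539) and Aldh1l2 lowest (4.17, 9.64 and 6.23), and the order of the genes between them changes from line to line.

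In HD-het against control cells, most of the pathway differed, and in both directions. Footprints were lower on Phgdh, Psat1, Shmt1, Shmt2, Mthfd1 and Mthfd1l and higher on Psph, Aldh1l2 and Asns, while Mthfd2 did not pass the threshold of an adjusted p of 0.05. That is 9 of 10 genes, 3 higher and 6 lower, where 60.1% of all genes tested passed (31.0% higher and 29.1% lower). The median log2 fold change of the 10 genes was -0.37, against 0.02 over all genes tested. In HD-homo against control cells, Shmt1, Aldh1l2 and Asns were higher and Mthfd1 and Mthfd1l lower, so that 5 of 10 genes passed (3 higher, 2 lower), where 45.7% of all genes did (23.3% higher and 22.3% lower). In HD-homo against HD-het cells 7 of 10 passed, where 67.5% of all genes did: 5 were higher (34.6% of all genes) and 2 lower (32.8% of all genes). With all 3 lines tested at once, 9 of 10 passed, where 78.4% of all genes did, and Mthfd2 was the gene that did not (adjusted p 0.190). Each share but that of HD-het against control lay near its background. Since HD-het and HD-homo were set against the same control libraries, the comparisons with control are not independent.

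**Figure D2:**
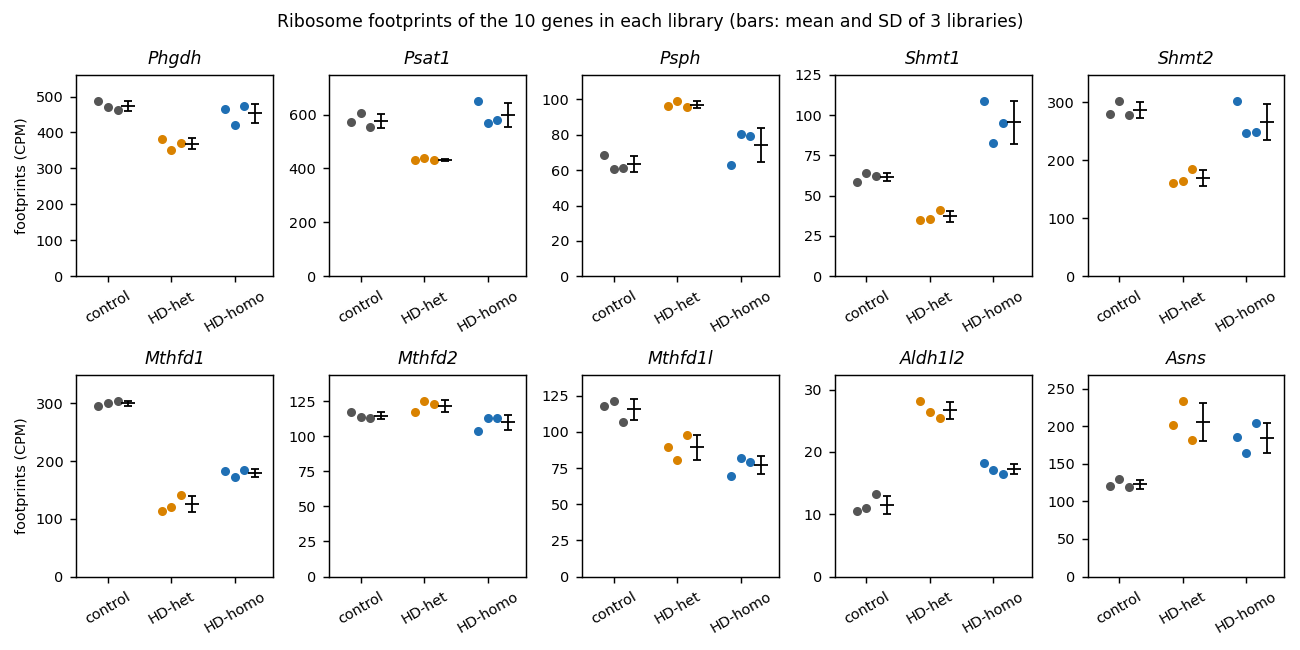
Footprints of each gene in the 9 libraries (CPM, axes from 0, a separate scale for each gene). Coloured points are libraries, and the black mark beside them is the mean and SD of the 3 libraries of a line. Phgdh, Psat1, Shmt1, Shmt2 and Mthfd1 are lowest in HD-het, Psph and Aldh1l2 highest in HD-het, and Mthfd2 stays between 103 and 125 CPM in all libraries.

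The serine synthesis enzymes did not move together in HD-het cells. Phgdh, the enzyme of the first committed step, stood at 488, 470 and 463 CPM in the control libraries, at 383, 352 and 372 in HD-het and at 465, 422 and 472 in HD-homo. All HD-het values lay below all others, and control and HD-homo overlapped. The HD-het level was lower than control by a log2 fold change of -0.36 (adjusted p 0.00170, SE 0.08) and the HD-homo level higher than HD-het by 0.30 (adjusted p 0.00473, SE 0.08), whereas HD-homo against control gave -0.06 (95% interval -0.23 to 0.10, adjusted p 0.517).

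Psat1, the aminotransferase, followed the same course. It had 571, 604 and 553 CPM in control, 431, 437 and 430 in HD-het and 651, 567 and 578 in HD-homo libraries. The HD-het values were nearly equal to each other and below all others. The log2 fold change was -0.41 in HD-het against control (adjusted p 0.000886, SE 0.08) and 0.47 in HD-homo against HD-het (adjusted p 0.000272, SE 0.08). HD-homo against control gave 0.06 (95% interval -0.12 to 0.23, adjusted p 0.593), a value that changed sign without HD-homo replicate 1 (-0.0083).

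Psph, the phosphatase that completes serine synthesis, went the other way. Its libraries had 68.7, 60.9 and 61.0 CPM in control, 96.2, 99.2 and 95.8 in HD-het and 63.1, 80.5 and 79.4 in HD-homo. HD-het lay above the other lines in every library, and HD-homo replicate 1 fell within the control range. HD-het exceeded control by 0.61 on the log2 scale (adjusted p 0.000331, SE 0.10), and HD-homo was below HD-het by a log2 fold change of -0.39 (adjusted p 0.00522, SE 0.10). HD-homo against control gave 0.23 (adjusted p 0.0902, SE 0.10), and without HD-homo replicate 1 it passed the threshold at 0.33 (adjusted p 0.00834). Per coding length, the ratio of Psph to Phgdh footprints was 0.307 to 0.334 in control, 0.596 to 0.668 in HD-het and 0.321 to 0.452 in HD-homo libraries, so that the HD-het ratios lay above all others.

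The serine hydroxymethyltransferases were both lower in HD-het cells and parted in HD-homo cells. Shmt1, the cytosolic enzyme, had 58.8, 63.8 and 62.0 CPM in control, 34.9, 35.3 and 41.3 in HD-het and 108.9, 82.6 and 94.98 in HD-homo libraries. No library of any line overlapped another line, and HD-homo was highest. The change was -0.73 on the log2 scale in HD-het (adjusted p 0.000179, SE 0.11) and 0.63 in HD-homo (adjusted p 0.000627, SE 0.11) against control, and 1.36 between HD-homo and HD-het (adjusted p 1.09e-06, SE 0.11), a 2.57-fold difference.

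Shmt2, the mitochondrial enzyme, had 281, 303 and 278 CPM in control, 161, 164 and 185 in HD-het and 303, 247 and 248 in HD-homo libraries. HD-het lay below the other lines throughout, and control and HD-homo overlapped. The log2 fold change was -0.76 in HD-het against control (adjusted p 6.20e-05, SE 0.10) and 0.65 in HD-homo against HD-het (adjusted p 0.000134, SE 0.10), and HD-homo against control gave -0.11 (95% interval -0.33 to 0.11, adjusted p 0.391). The ratio of Shmt2 to Shmt1 footprints per coding length was 4.26 to 4.53 in control and 4.26 to 4.40 in HD-het libraries, where both genes were lower. In HD-homo libraries it was 2.48 to 2.84, below every library of the other lines.

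Among the folate-interconverting enzymes the cytosolic Mthfd1, which carries dehydrogenase, cyclohydrolase and formyltetrahydrofolate synthetase activities on 1 polypeptide, was lower than control in both HD lines. It had 295, 299.9 and 304 CPM in control, 113, 121 and 141 in HD-het and 184, 172 and 184 in HD-homo libraries. The lines did not overlap, with HD-homo between the other 2. It was 2.39-fold lower in HD-het (log2 fold change -1.26, adjusted p 8.85e-07, SE 0.09) and 1.67-fold lower in HD-homo cells (-0.74, adjusted p 4.28e-05, SE 0.09) than in control, and HD-homo exceeded HD-het by 0.52 on the log2 scale (adjusted p 0.000280, SE 0.09).

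Mthfd1l, the mitochondrial synthetase that releases formate, had 118, 121 and 107 CPM in control, 89.6, 80.8 and 98.0 in HD-het and 69.8, 81.9 and 79.3 in HD-homo libraries. All control values lay above all values of both HD lines, which overlapped. The log2 fold change was -0.37 in HD-het (adjusted p 0.00642, SE 0.10) and -0.59 in HD-homo cells (adjusted p 0.000493, SE 0.10) against control. Under a correction for GC content and length the HD-het value was -0.58 (adjusted p 0.000205). HD-homo against HD-het gave -0.22 (95% interval -0.43 to -0.0030, adjusted p 0.0676), and the call passed without HD-het replicate 2 (-0.28, adjusted p 0.0342), without HD-homo replicate 2 (-0.26, adjusted p 0.0492) and with a minimum of 10 counts in every library (-0.24, adjusted p 0.0449), while the GC content and length correction gave -0.023 (adjusted p 0.840).

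Mthfd2, the mitochondrial dehydrogenase and cyclohydrolase, was the only one of the 10 genes not called among the 3 lines. It had 117, 114 and 113 CPM in control, 117, 125 and 123 in HD-het and 103, 113.3 and 112.9 in HD-homo libraries. Control overlapped both HD lines, and all HD-homo values lay below all HD-het values. The log2 fold change was 0.09 in HD-het (95% interval -0.07 to 0.24, adjusted p 0.327) and -0.06 in HD-homo cells (95% interval -0.22 to 0.10, adjusted p 0.511) against control. HD-homo against HD-het gave -0.15 (95% interval -0.31 to 0.01, adjusted p 0.0906), which passed with DESeq2 (adjusted p 0.0370) and with the minimum of 10 counts (adjusted p 0.0499).

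With Mthfd1 lower and Mthfd2 not called, the ratio of mitochondrial Mthfd2 to cytosolic Mthfd1 footprints differed between the lines. This ratio restates the values above, and enzyme levels were not measured here. Mthfd2 footprints per coding length were 0.994 to 1.06 times those of Mthfd1 in control, 2.33 to 2.76 times in HD-het and 1.51 to 1.76 times in HD-homo libraries. No line overlapped another in this ratio. For Mthfd1l over Mthfd1 the ratio was 0.337 to 0.387 in control, 0.638 to 0.756 in HD-het and 0.364 to 0.456 in HD-homo libraries, so that HD-het stood above the other lines, which overlapped.

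**Figure D3:**
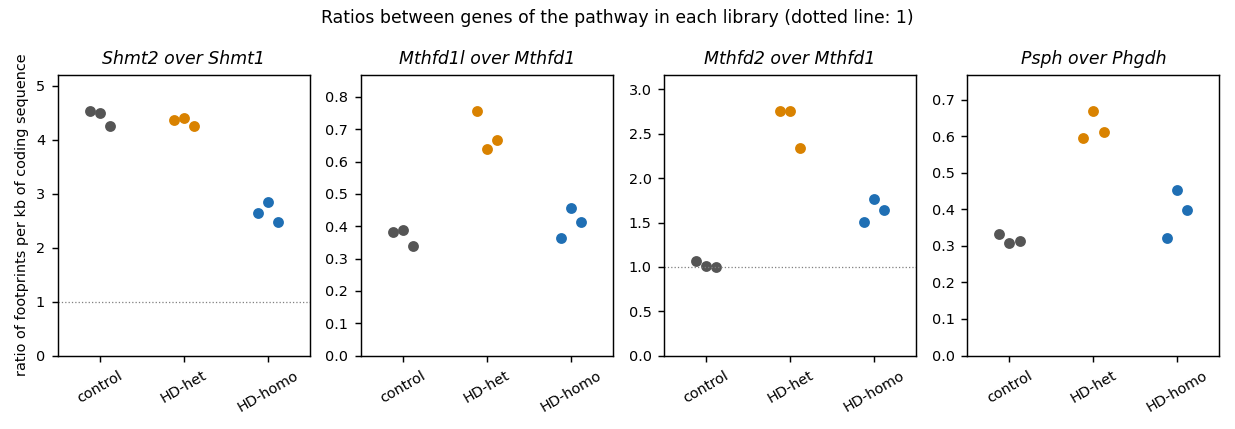
Ratios of footprints per kb of coding sequence in each library, for Shmt2 over Shmt1, Mthfd1l over Mthfd1, Mthfd2 over Mthfd1 and Psph over Phgdh (linear axes from 0, 1 point per library, dotted line at 1). Shmt2 over Shmt1 is low in HD-homo (2.48 to 2.84), and the other ratios are highest in HD-het.

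Aldh1l2, the mitochondrial 10-formyltetrahydrofolate dehydrogenase, was the least abundant gene and rose in both HD lines. It had 10.46, 10.96 and 13.2 CPM in control, 28.2, 26.4 and 25.5 in HD-het and 18.2, 17.1 and 16.5 in HD-homo libraries. The lines did not overlap, and HD-homo stood between the others. It was 2.31-fold higher in HD-het (log2 fold change 1.21, adjusted p 3.93e-06, SE 0.11) and 1.498-fold higher in HD-homo cells (0.58, adjusted p 0.00101, SE 0.11) than in control. Under a correction for GC content and length the HD-het value was 0.87 (adjusted p 5.54e-05), which is under 2-fold. HD-homo was below HD-het by a log2 fold change of -0.63 (adjusted p 0.000258, SE 0.10), and corrected for GC content and length that value was -0.20 and did not pass (adjusted p 0.139).

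Asns, whose promoter element is shown above, rose in both HD lines. It had 120.0, 129.5 and 119.0 CPM in control, 202, 233 and 182 in HD-het and 185, 164 and 205 in HD-homo libraries. Every HD library lay above every control library, and the HD lines overlapped. It was 1.68-fold higher in HD-het (log2 fold change 0.74, adjusted p 0.000138, SE 0.11) and 1.504-fold higher in HD-homo cells (0.59, adjusted p 0.00103, SE 0.11) than in control, and HD-homo against HD-het gave -0.16 (95% interval -0.39 to 0.08, adjusted p 0.222).

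**Figure D4:**
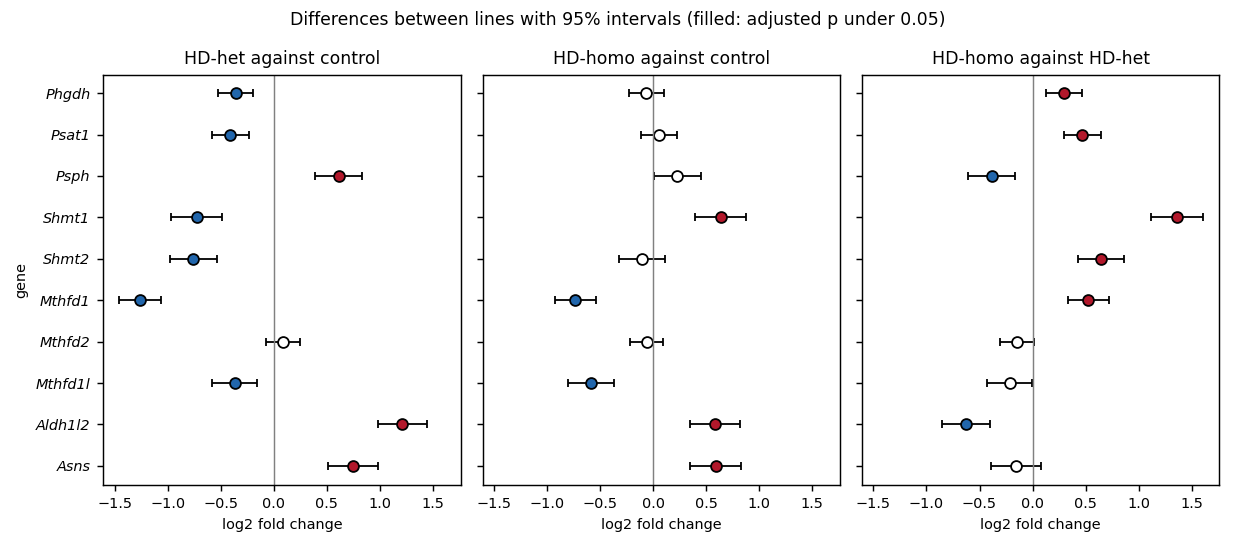
Log2 fold changes of the 10 genes in the 3 comparisons, with 95% intervals as bars. Red points passed the adjusted p of 0.05 as higher, blue points as lower, and open points did not pass. Aldh1l2 and Asns lie to the right and Mthfd1 and Mthfd1l to the left in both comparisons with control, Shmt1 changes side (-0.73 and 0.63), and Mthfd2 is open in all 3.

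The other genes of the pathway were read from lists of 68 genes that exclude the 10 above, and 58 of them passed the filter. Their counts are to be read against all genes tested, of which 31.0% were higher and 29.1% lower in HD-het, and 23.3% higher and 22.3% lower in HD-homo, when set against control. Among 11 tested folate cycle enzymes, 1 was higher and 3 were lower in HD-het than in control, and 5 were higher and 1 lower in HD-homo. Ggh, a lysosomal hydrolase that trims folate polyglutamates, rose by 1.26 on the log2 scale in HD-het (adjusted p 5.20e-06, SE 0.12) and had -0.51 in HD-homo (adjusted p 0.00455, SE 0.12) against control. Mtrr, which reactivates methionine synthase, was higher in HD-homo than in control by 0.80 (adjusted p 0.000748, SE 0.14).

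The carriers of folate and serine were mixed, with 2 of 10 higher and 5 lower in HD-het, and 3 higher and 5 lower in HD-homo, against control, which on the lower side is above the 29.1% and 22.3% of all genes. Slc1a4, a carrier of serine and other neutral amino acids, rose by 1.54 on the log2 scale in HD-het (adjusted p 3.68e-06, SE 0.13). Slc1a5, its glutamine-carrying relative, was lower in HD-het (log2 fold change -1.34, adjusted p 6.15e-05, SE 0.17) and in HD-homo (-1.93, adjusted p 5.47e-06, SE 0.18), and Slc38a2, another neutral amino acid carrier, was lower in HD-homo (-0.71, adjusted p 0.000700, SE 0.12). Slc25a32, which brings folate into mitochondria, differed between HD-homo and HD-het by 0.90, with HD-homo higher (adjusted p 2.07e-06, SE 0.08).

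Of 8 genes of glycine cleavage and of serine or glycine use, 3 were higher and 2 lower in HD-het, and 1 was higher and 1 lower in HD-homo, than in control, shares near or below those of all genes (31.0%, 29.1%, 23.3% and 22.3%). Gcat, a mitochondrial enzyme of threonine breakdown to glycine, was lower in HD-het than in control (log2 fold change -1.59, adjusted p 1.01e-05, SE 0.16), and Gcsh, the H protein of the glycine cleavage system, was lower in HD-het (-0.50, adjusted p 0.000287, SE 0.08) and higher in HD-homo (0.38, adjusted p 0.00268, SE 0.08). Of 8 genes of the methionine cycle and transsulfuration, 1 was higher and 2 lower in each HD line against control. These shares too were near or below those of all genes. Ahcy, which clears S-adenosylhomocysteine, had -0.84 in HD-het (adjusted p 8.02e-06, SE 0.08), and Cth, which makes cysteine, had -0.45 in HD-homo (adjusted p 0.0121, SE 0.13).

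Most listed genes of purine synthesis, a pathway that takes up formyl groups from folate, had fewer footprints in HD-het than in control cells. Mthfd1, Shmt1 and Shmt2 also had fewer, and a link between the 2 sets was not tested. Of the 8 purine synthesis genes, 7 were lower and none was higher in HD-het than in control, with a median log2 fold change of -0.59, where 29.1% of all genes were lower and 31.0% higher. Adsl, which acts late in the pathway and again on the way to AMP, had -1.24 (adjusted p 1.58e-06, SE 0.10), and Ppat, the amidotransferase that opens the pathway, had -0.78 (adjusted p 1.66e-05, SE 0.08). In HD-homo against control cells 1 of 8 passed, Prps2, which makes the ribose donor, at -0.66 (adjusted p 0.000112, SE 0.09). Between HD-homo and HD-het, 7 were higher and 1 was lower (median 0.61), where 34.6% and 32.8% of all genes were.

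Of 13 enzymes of aspartate, asparagine and glutamine, which surround the Asns reaction, 4 were higher and 5 lower in HD-het, and 3 higher and 5 lower in HD-homo, than in control, where the shares of all genes were 31.0%, 29.1%, 23.3% and 22.3%. Got1, which makes aspartate in the cytosol, had a log2 fold change of -1.31 in HD-het (adjusted p 2.39e-07, SE 0.08), and Pycr1, of proline synthesis, had 1.03 (adjusted p 0.000113, SE 0.15). In HD-homo cells Glul, glutamine synthetase, was higher than in control by 2.26 (adjusted p 2.95e-06, SE 0.19) and Ass1, which consumes aspartate for argininosuccinate, by 2.09 (adjusted p 3.61e-08, SE 0.10). Of 6 astrocyte markers, a cell type that is rich in glutamine synthetase, Slc1a3 averaged 11.7 CPM in HD-homo, 1.67 in control and 0.964 in HD-het, while Gfap averaged 0.9499, 1.149 and 0.9956 CPM in that order and Aqp4 had no count. The summed level was 12.01 to 14.2 CPM across HD-homo libraries and at most 4.09 CPM elsewhere, nearly all of the difference being Slc1a3, and its part in the Glul value was not tested.

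A list of 27 other ATF4 targets and partners was set beside the 10 genes. It is a selection, and genes of the lists above were not counted in it, among them the carriers Slc1a4, Slc1a5 and Slc38a2. Against control in HD-het, Slc1a4 was higher, and Slc1a5 and Slc38a2 (-0.58, adjusted p 0.00177, SE 0.12) were lower. Other amino acid carrier genes are in the list (Slc7a11, Slc7a5, Slc3a2, Slc7a1, Slc7a3 and Slc6a9), and all of these were higher in HD-het. Against control, 23 of the 27 had more footprints in HD-het and 2 had fewer (median log2 fold change 0.91), where 31.0% and 29.1% of all genes did. Trib3, a pseudokinase of the stress response, reached 2.73 (adjusted p 1.51e-06, SE 0.21) and Atf5, a related transcription factor, 2.30 (adjusted p 5.62e-06, SE 0.21). The 2 with fewer were Ddit4 (-1.08, adjusted p 0.000854, SE 0.21) and Nupr1 (-0.43, adjusted p 0.0239, SE 0.14). In the same comparison Asns, Psph and Aldh1l2 were higher, Mthfd2 was not called, and Phgdh, Psat1, Shmt1, Shmt2, Mthfd1 and Mthfd1l were lower. In HD-homo against control cells 8 of the 27 rose and 6 fell (median 0.09), near the 23.3% and 22.3% of all genes. Among those that fell, Stc2, a secreted glycoprotein, had -2.13 (adjusted p 7.92e-05, SE 0.28) and Nupr1, a stress-induced nuclear protein, -1.16 (adjusted p 6.79e-05, SE 0.15). Among those that rose, Trib3 had 0.92 (adjusted p 0.00433, SE 0.21). Gdf15, at low levels (4.41 CPM in HD-homo, 0.141 in control), had the largest change of the list, 4.95 (adjusted p 6.43e-07, SE 0.35). Between HD-homo and HD-het, 1 was higher and 21 were lower (median -0.72), where 34.6% and 32.8% of all genes were, and Vldlr, a lipoprotein receptor, had -2.56 (adjusted p 1.39e-06, SE 0.22). The motif TGATGNAA that Asns carries was in a promoter window of 9 of the 22 genes of this list that had one. The 3.97% given above counts windows and not genes, so it is not a background for this number.

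**Figure D5:**
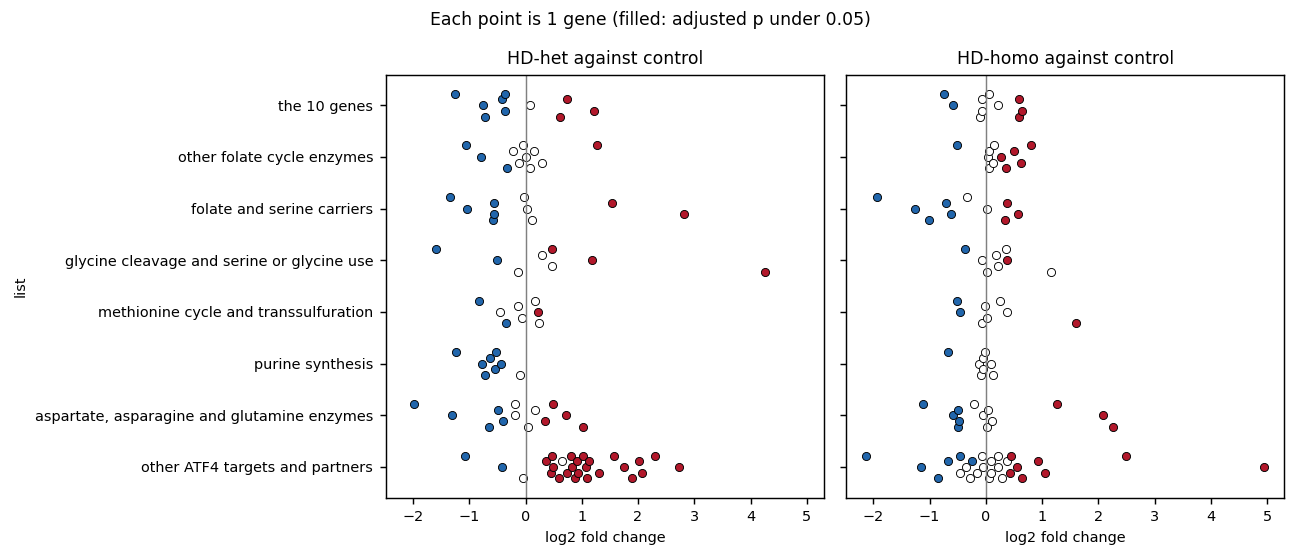
Log2 fold changes of single genes (1 point each) in HD-het and HD-homo against control, for the 10 genes and 7 other lists in rows. Filled red points passed the adjusted p of 0.05 as higher, filled blue points as lower, and open points did not pass; vertical offsets within a row only separate points. Purine synthesis lies left of 0 in HD-het (7 of 8 lower) and the other ATF4 targets to the right (23 of 27 higher), whereas in HD-homo both rows spread around 0 (medians -0.05 and 0.09).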

How the data were processed

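Ribosome footprints of 3 striatal cell lines, 3 libraries each, were analysed from raw counts per gene symbol that the authors deposited without normalization or pooling. The submitters' processing notes name cutadapt, Bowtie 1.0.1 and mm10. The counting program, annotation and use of strand are not given in the sources used here. The 9 columns carry the sample names, and 93.0% of rows matched a RefSeq symbol or synonym. Counts were filtered by expression, scaled by trimmed mean of M values (TMM) and tested with edgeR 4.0.16 (R 4.3.3, quasi-likelihood F test, all 9 libraries in 1 fit, Benjamini-Hochberg adjustment over 12678 genes). Intervals cover 95%. CPM use library totals times the TMM factor, and coding lengths are the longest annotated coding sequence in GENCODE on GRCm38. Libraries of 22504543 counts or more put at least 274 counts behind each member value. DESeq2 1.42.0 and other normalizations, filters, thresholds and subsets were alternatives. The script was tested on simulated data in which far fewer genes differed than were called here. That run checked the code and not its behaviour when most genes differ.

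The members and lists were chosen with earlier results of these data known. Named genes were all members, Htt, and in each other list and comparison up to 2 called genes of largest absolute change whose mean reached 5 CPM in the higher line. In the ATF4 list, Gdf15, Ddit4 and single values of Trib3 and Nupr1 were given outside this rule, to show changes in the other direction. The values of 1 gene that this rule selects are not reported here. For 4 members, the 3 genes of most similar profile were also named. The Psph to Phgdh ratio and the GC content and length offsets were added after values were seen. Same-numbered libraries were not treated as pairs, because the correlations of their deviations from the line means ran from -0.42 to 0.20. No 2 libraries had equal counts in more than 2.93% of tested genes. No mRNA libraries were analysed here.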

Additional observations from a re-analysis of the deposited data

How the results depend on the processing

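Of the recomputed member values, 531 kept their direction and their side of the threshold, 1 lost its call, 6 gained one and 2 changed sign. The numbers of members called were 9, 5, 7 and 9 (for HD-het and then HD-homo against control, for HD-homo against HD-het, and for the 3 lines together), and the replicate block gave the same 9, 5, 7 and 9, the pairing resting on library numbers alone. Leaving out each library in turn gave 9 in every case, 5 to 6, 7 to 8, and 9 in every case. For HD-homo against HD-het, DESeq2 gave 8 and a minimum of 10 counts in every library gave 9. GC content and length offsets gave 6 there. Requiring at least a 2-fold change left 2, 0 and 1 in the pairwise comparisons. The share of all genes past that threshold was not computed, so these counts have no background here. The 0 reflects that threshold, since 5 genes passed on the adjusted p. Aldh1l2, past 2-fold in HD-het against control, was under it with GC content and length offsets (log2 fold change 0.87). Psat1 in HD-homo against control reversed to -0.0083 without HD-homo replicate 1 and to -0.035 with GC content and length offsets, neither of which passed, and leaving out single libraries gave -0.0083 to 0.095. The cause was not tested. Without division by coding length, Mthfd2 over Mthfd1 was -1.38, -0.04 and -0.71 on the log2 scale in control, HD-het and HD-homo. Depth did not limit the members, while 10 of the 68 other pathway genes were too low to test.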

Other observations

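Among 7716 other genes with a mean of at least 10 CPM, those whose log2 CPM followed 4 of the members most closely over the 9 libraries were listed as a description. The 9 points fall into 3 lines and share library and depth, so that any gene with the same order of lines scores high. For Phgdh they were Rps18 (Pearson r 0.984), Ahsa1 (0.980) and Bola2 (0.978), and 138 genes exceeded 0.95. For Shmt2 they were Them6 (0.992), Cyc1 (0.991) and Tomm70a (0.990), and 244 genes exceeded 0.95. For Asns they were Rnpep (0.973), Tns1 (0.962) and Ppp6c (0.961), and 11 genes exceeded 0.95. For Mthfd2 they were Zfp638 (0.944), Caprin1 (0.935) and Rif1 (0.933), and none exceeded 0.95.

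The spread of the members between libraries of 1 line was moderate. The median coefficient of variation of the 10 genes was 4.62% across control, 6.53% across HD-het and 7.92% across HD-homo libraries. The most variable member was Aldh1l2 in control at 12.6%, Asns in HD-het at 12.6% and Shmt1 in HD-homo at 13.7%.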
